A study of Mus musculus with 6 samples.

Results

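The genes described here encode the enzymes and carriers by which the liver breaks down amino acids and turns their nitrogen into urea. They were chosen by name: 42 genes were listed, and every row of the deposited array table whose platform annotation gave 1 of these symbols, and no other, was taken as a member. That gave 48 probe sets for 38 genes, out of 22626 probe sets and 12393 genes in all. Gls2, Mut and Amt were not matched to a probe set, and Ass1 shared its probe set's annotation with another symbol, so these 4 genes were not analysed here.

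The livers came from male C57BL/6J mice treated for 90 days with either distilled water (control) or drinking source water (source water), with food freely available to both groups. Each group had 10 mice, the livers of 9 were used, and tissue from 3 mice was homogenised together for each RNA sample, so that 3 pools a group were hybridised to 3 one-colour Affymetrix arrays. Neither the animals' age nor the time of day at which livers were taken is stated in the labels. The spread between arrays is a spread between pools, which is smaller than that between single animals. Values are log2 signals as deposited, and differences are source water minus control on that scale, with the moderated standard error (SE) or 95% confidence interval of a limma fit over all probe sets. A gene with several probe sets is represented by the one with the highest mean over the 6 arrays.

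In the liver, the urea cycle joins ammonia and aspartate nitrogen into urea: NAGS makes the activator of CPS1, CPS1 and OTC work in the mitochondrion, and argininosuccinate synthase, ASL and ARG1 in the cytosol. Transaminases collect amino groups onto glutamate or pass them to aspartate, while dedicated pathways dismantle the carbon skeletons of proline, histidine, tyrosine, the branched-chain amino acids, the sulfur amino acids, lysine and glycine. Many of these genes are known to respond to glucagon, glucocorticoids and protein intake, and several are expressed unevenly along the liver lobule, with urea synthesis mainly around the portal vein and glutamine synthesis (GLUL) around the central vein.

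All 38 members were measured above the median level of all probe sets, with means from 6.26 for Mccc2 to 14.21 for Hpd. The hepatocyte identity of the tissue was clear from Alb at 14.92 in control and 14.90 in source water, and from Ttr at 14.77 and 14.82. None of the members passed the limma test after Benjamini-Hochberg adjustment over all probe sets (adjusted p threshold 0.05), which 4 of 12393 genes did (0.0323% of all genes, and 0.062% of the 6449 genes at or above the level of the lowest member). Without adjustment, 7 of 38 members (18.4%) had a p under 0.05, 2 higher and 5 lower in source water. The same rule took 6.76% of all genes, 4.16% higher and 2.6% lower, and 10.6% of the genes at or above the level of the lowest member (6.7% higher and 3.88% lower). The 7 were Amdhd1 and Gldc on the higher side and Prodh, Gpt, Arg1, Dbt and Asl on the lower side. Of all 38 members 26 were lower in source water (68.4%, against 50.5% of all genes and 45.7% of those at or above the level of the lowest member), and 21 to 27 were when 1 array was left out. The members had a median difference of -0.06 against -0.00 for all genes. The 3 source water arrays all lay above the 3 control arrays for 3 members and all below them for 9. Over all genes this held for 11.5% (6.51% above and 5.03% below), and over genes at or above the level of the lowest member for 15.6% (9.35% and 6.2%). The difference turned in sign under at least 1 alternative setting for 15 members, all of them within 0.19 of 0. The plot of differences gives each member by branch.

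**Figure D1:**
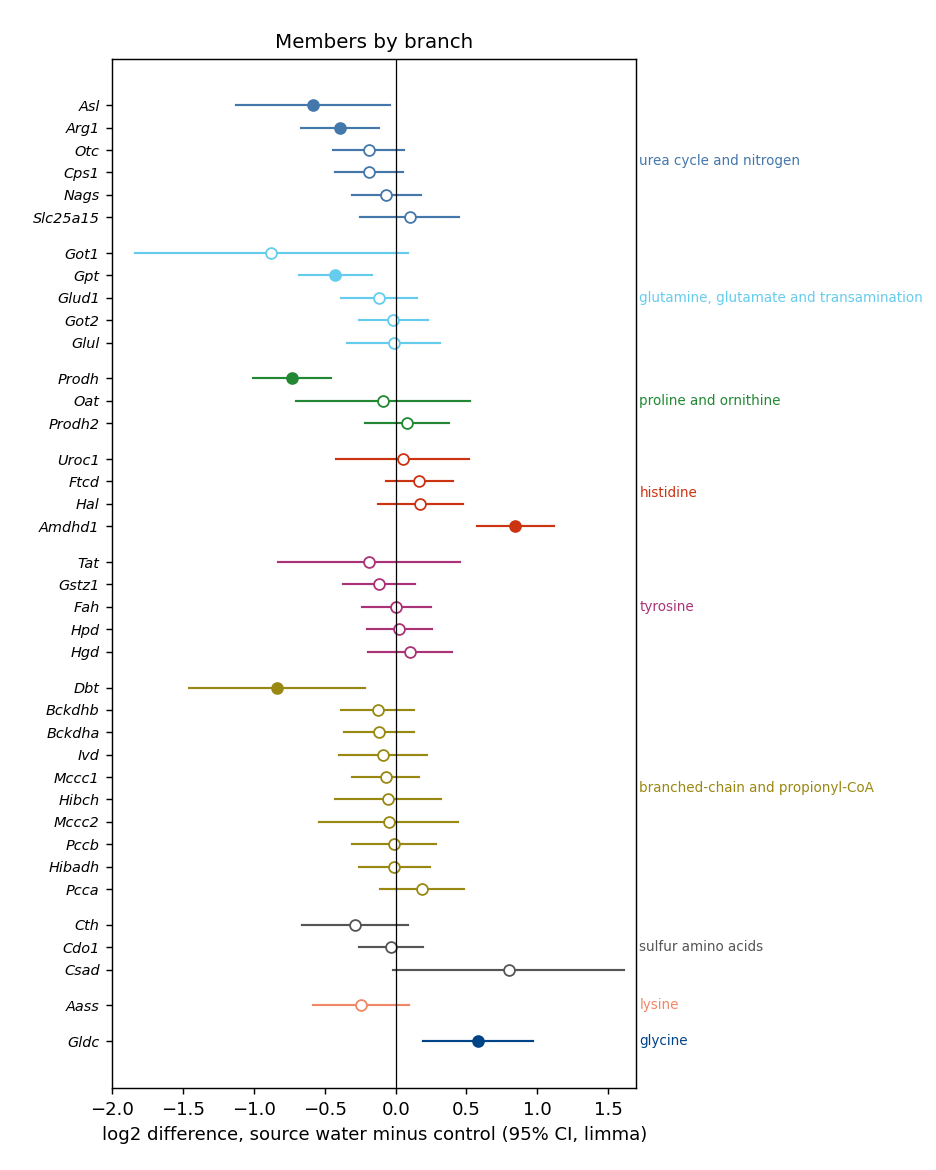
Log2 difference in hepatic signal, source water minus control, for the 38 members, grouped by pathway branch, with 95% confidence intervals from limma (3 arrays per group). Filled points have an unadjusted p under 0.05: Amdhd1 and Gldc lie above 0, and Asl, Arg1, Gpt, Prodh and Dbt below 0.

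Amdhd1 (imidazolonepropionase, the third enzyme of histidine breakdown) had the smallest p of the set. It measured 9.80, 9.93 and 9.76 in the control arrays and 10.82, 10.52 and 10.68 in the source water arrays, so that the lowest source water array lay well above the highest control array. The difference was 0.84 ± 0.12 (SE, n = 3 per group), a 1.8-fold higher signal, with an unadjusted limma p of 8.8e-05 and an adjusted p of 0.0642, which placed it at rank 20 of 12393 genes by p. For this gene and any other whose groups did not overlap, the exact permutation test over the 6 arrays gave a two-sided p of 0.1, the smallest that 3 arrays against 3 allow.

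The other 3 histidine genes differed by 0.05 to 0.18, and none of them had an unadjusted p under 0.05. Ftcd, whose product transfers the formimino group of histidine to tetrahydrofolate, measured 12.21, 12.14 and 12.05 in control and 12.34, 12.33 and 12.22 in source water, groups that did not overlap, but the difference of 0.17 (95% interval -0.07 to 0.41) was small. Hal (histidine ammonia-lyase, the entry step) differed by 0.18 and Uroc1 (urocanase, the second step) by 0.05, with overlapping groups and unadjusted p-values of 0.218 and 0.807. Hal differed by 0.06 without control replicate 3. Uroc1 turned to -0.10 without control replicate 1 and to -0.12 without source water replicate 2, and its second probe set differed by 0.12 with all arrays. Taken within each array, Amdhd1 minus Hal was higher by 0.67 in source water, Amdhd1 minus Uroc1 by 0.79 and Amdhd1 minus Ftcd by 0.68, none with overlap between the groups. These contrasts were chosen after the values were seen and were not tested. In the RefSeq annotation of GRCm38.p6, Hal and Amdhd1 are direct neighbours on chromosome 10, on opposite strands, with no annotated gene between them and 51265 bases between their starts.

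Prodh had the smallest p among the members that were lower in source water. This mitochondrial proline dehydrogenase, which opens proline breakdown, measured 10.75, 11.05 and 10.83 in control and 10.24, 10.14 and 10.06 in source water. Every source water array lay below every control array, and the difference was -0.73 ± 0.12 (SE), a 1.66-fold lower signal (unadjusted limma p 0.000265, adjusted p 0.102, rank 44 of 12393). Prodh2, a related gene whose product acts on hydroxyproline, measured 10.16, 10.43 and 10.04 in control and 10.27, 10.40 and 10.21 in source water, with overlapping groups and a difference of 0.08 (95% interval -0.22 to 0.38). Within arrays, Prodh minus Prodh2 differed by -0.81 between source water and control with no overlap, again a contrast chosen after the values were seen and not tested. Oat, the ornithine aminotransferase that links proline and ornithine, differed by -0.09, and its source water arrays ranged from 11.42 to 12.46. The difference turned to 0.20 without source water replicate 2 and to 0.09 without control replicate 3.

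The promoter windows of these contrasting genes are shown because Hal and Amdhd1 are neighbours in the same pathway, and Prodh and Prodh2 relatives, that differed unequally. They are the 250 bases before the annotated start, on the gene's strand, from RefSeq (GRCm38.p6), at chr10:93540034-93540283 on the minus strand for Amdhd1, chr10:93488518-93488767 on the plus strand for Hal, chr16:18089191-18089440 on the minus strand for Prodh and chr7:30493408-30493657 on the plus strand for Prodh2, with matches to the searched motifs in capitals.
Amdhd1: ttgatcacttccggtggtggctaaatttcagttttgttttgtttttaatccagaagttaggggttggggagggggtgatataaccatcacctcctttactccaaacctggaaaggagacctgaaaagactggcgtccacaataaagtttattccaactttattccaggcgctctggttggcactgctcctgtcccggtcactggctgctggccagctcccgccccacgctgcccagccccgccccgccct
Hal: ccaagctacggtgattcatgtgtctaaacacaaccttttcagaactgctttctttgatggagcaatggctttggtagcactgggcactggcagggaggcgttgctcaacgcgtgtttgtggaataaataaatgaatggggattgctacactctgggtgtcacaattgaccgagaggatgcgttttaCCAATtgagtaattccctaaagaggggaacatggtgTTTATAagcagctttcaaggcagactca
Prodh: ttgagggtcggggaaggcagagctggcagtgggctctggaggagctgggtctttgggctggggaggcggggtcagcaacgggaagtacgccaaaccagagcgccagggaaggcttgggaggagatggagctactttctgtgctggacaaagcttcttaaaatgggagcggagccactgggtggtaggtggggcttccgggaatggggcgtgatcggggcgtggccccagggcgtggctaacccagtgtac
Prodh2: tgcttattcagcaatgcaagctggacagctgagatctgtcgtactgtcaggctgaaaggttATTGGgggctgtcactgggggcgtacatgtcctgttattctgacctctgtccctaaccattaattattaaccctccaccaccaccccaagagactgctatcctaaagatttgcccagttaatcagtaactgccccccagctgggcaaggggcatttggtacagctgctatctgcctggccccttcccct
The searched motifs, on both strands, were TGACGTCA or TGACGTAA (cAMP response element), TTGCGCAA or TTATGCAA (C/EBP), the palindromic glucocorticoid response element, the DR1 direct repeat, CACGTG (E-box), TTATGTAA (D-box), TGATTGCA or TGATGCAA (ATF4 with C/EBP), TATAAA and CCAAT, none of which overlap in these windows. Hal held a CCAAT that begins 64 bases before the start and, on the other strand, a TATAAA 28 bases before it, Prodh2 held a reverse CCAAT at 189 bases, and the windows of Amdhd1 and Prodh held no match. GC content was 53.2% for Amdhd1, 45.6% for Hal, 63.2% for Prodh and 51.6% for Prodh2, against a median of 52.4% over 32851 windows. Of the measured members 31 had a window in the table, 36 windows in all. CCAAT was present in 20 of the 36 and in 33.8% of all windows, TATAAA in 4 (12.4%), CACGTG in 2 (6.02%) and the ATF4 motif in 1, that of Got1 (1.33%). The remaining motifs matched in 0 of the 36 windows, and in 0.00913% to 1.98% of all windows.

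**Figure D2:**
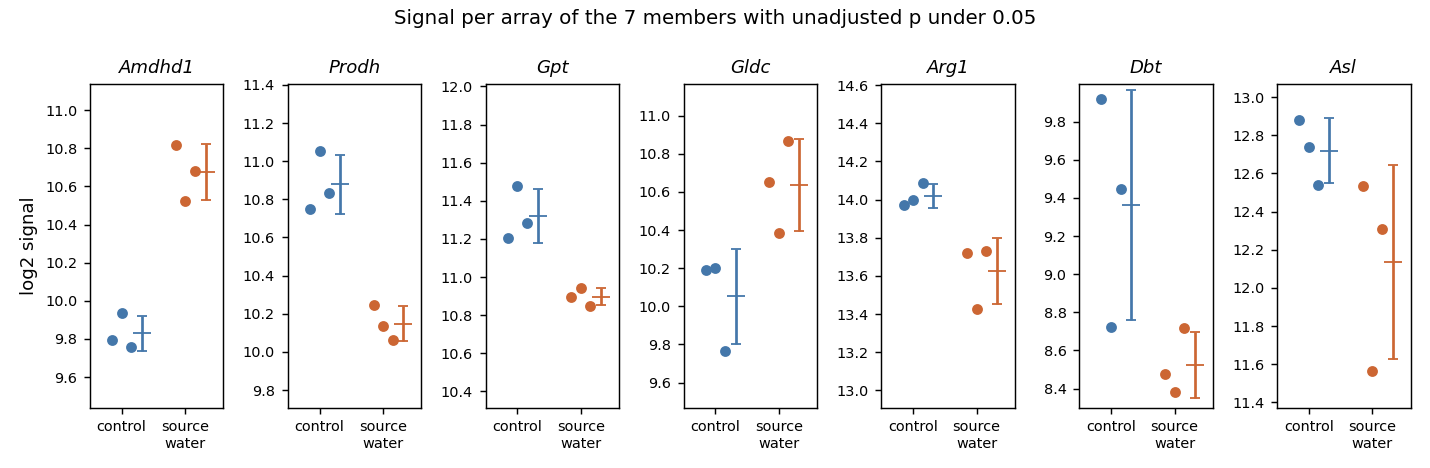
Log2 signal in each array for the 7 members with an unadjusted p under 0.05, with the mean and SD of the 3 arrays of a group beside the points, each panel spanning the same range. The groups do not overlap in any panel, but for Dbt and Asl the nearest control and source water arrays almost touch.

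Urea cycle genes were lower in source water for 5 of 6 measured members, with a median difference of -0.19. Arg1, the arginase that releases urea, measured 13.97, 14.00 and 14.09 in control and 13.72, 13.43 and 13.73 in source water. The groups were clearly apart, with a difference of -0.39 ± 0.12 (SE), a 1.31-fold lower signal (unadjusted limma p 0.0107, adjusted p 0.538). Asl, which splits argininosuccinate into arginine and fumarate, measured 12.88, 12.74 and 12.54 in control and 12.53, 11.56 and 12.31 in source water. Its groups separated by 0.01 between control replicate 3 and source water replicate 1, and the low value came from source water replicate 2. The difference of -0.58 ± 0.24 (unadjusted limma p 0.0383, adjusted p 0.765) became -0.30 without source water replicate 2, with an unadjusted limma p of 0.0877. The p was also above 0.05 without control replicate 1 (0.106) or control replicate 2 (0.0708).

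The mitochondrial steps of the cycle differed less. Cps1, the carbamoyl phosphate synthetase that fixes ammonia, measured 13.80, 13.94 and 13.85 in control and 13.78, 13.62 and 13.62 in source water (difference -0.19, 95% interval -0.43 to 0.05). Otc, which makes citrulline, also differed by -0.19, from 13.03 ± 0.12 in control to 12.84 ± 0.06 in source water (mean ± SD, n = 3). Both genes had groups that did not overlap and unadjusted p-values of 0.109 and 0.118. The other probe sets of Otc differed by -0.13 and 0.11. Nags differed by -0.07, and Slc25a15, the mitochondrial ornithine carrier, by 0.10, with overlapping groups.

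The 5 measured genes that handle glutamine, glutamate and amino groups differed by -0.88 to -0.01, with a median of -0.12, and 1 of them had an unadjusted p under 0.05. Gpt, the alanine aminotransferase of the cytosol, measured 11.20, 11.48 and 11.28 in control and 10.90, 10.94 and 10.85 in source water. All source water arrays lay below the control range, and the difference was -0.43 ± 0.11 (SE), a 1.34-fold lower signal (unadjusted limma p 0.00505, adjusted p 0.412). Gpt2, the mitochondrial alanine aminotransferase and not one of the listed genes, measured 12.40, 12.28 and 12.14 in control and 11.99, 11.44 and 11.70 in source water. It differed by -0.57 ± 0.16 (unadjusted limma p 0.0065, adjusted p 0.421), and its other probe sets by -0.55 and -0.58.

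Got1, the cytosolic aspartate aminotransferase, had the lowest difference of all members, -0.88 ± 0.42 (SE), but did not separate the groups. It measured 12.24, 12.25 and 11.84 in control and 12.20, 10.24 and 11.26 in source water (unadjusted limma p 0.0692). Source water replicate 1 thus lay within the control range and replicate 2 far below it, and the difference was -0.38 without replicate 2 and -1.36 without replicate 1. Its mitochondrial counterpart Got2 differed by -0.02 (95% interval -0.26 to 0.23), and by 0.04 without control replicate 2. Glud1 (glutamate dehydrogenase) differed by -0.12 and by -0.18 in its second probe set, the latter with groups that did not overlap. Glul (glutamine synthetase) differed by -0.01 (95% interval -0.34 to 0.32), by 0.00 after median centring and by 0.09 without control replicate 3.

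**Figure D3:**
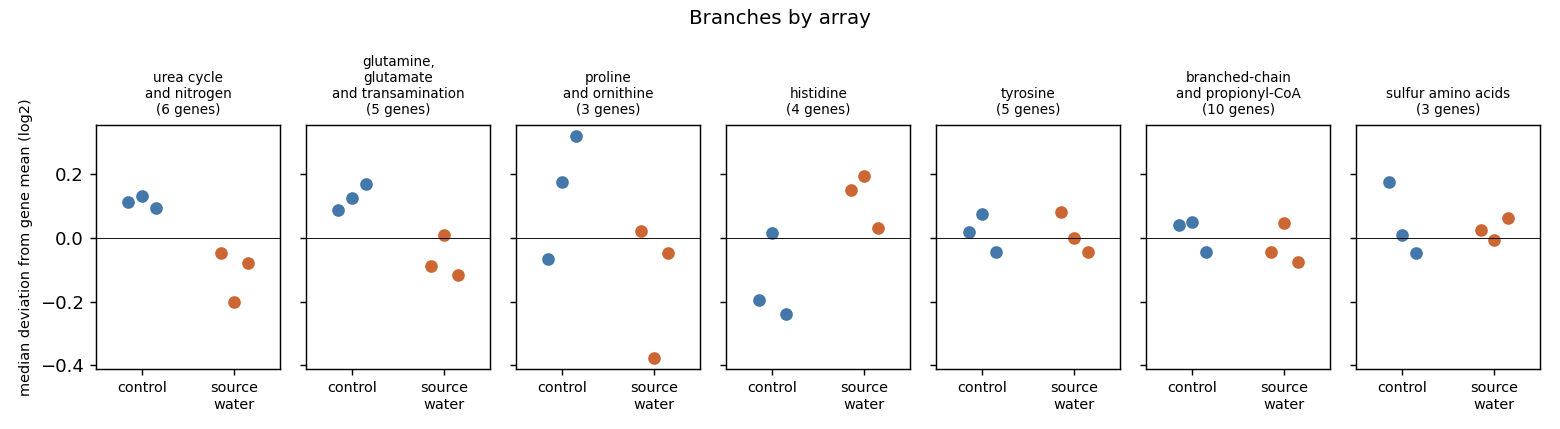
Median deviation of the members of a branch from each gene's mean over the 6 arrays (log2), 1 point per array, for branches with at least 3 measured genes. Control arrays lie above source water arrays for the urea cycle and for glutamine, glutamate and transamination, and below them for histidine, while the groups overlap in the other 4 branches.

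The branches can be set side by side by array. The median deviation of the 6 urea cycle genes from their own means was 0.09 to 0.13 in control and -0.20 to -0.05 in source water, and that of the 5 transamination genes was 0.09 to 0.17 and -0.12 to 0.01. The 4 histidine genes went the other way, at -0.24 to 0.01 in control and 0.03 to 0.19 in source water. The 5 tyrosine genes overlapped, at -0.04 to 0.08 in both groups. Differences between branches were not tested.

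Of the 10 measured genes of branched-chain and propionyl-CoA breakdown, 9 were lower in source water, mostly by little, with a median of -0.06, and 5 of the 9 turned in sign under at least 1 alternative setting. Dbt, the E2 core subunit of the branched-chain ketoacid dehydrogenase, was the exception in size. It measured 9.92, 8.72 and 9.45 in control and 8.48, 8.38 and 8.72 in source water, a difference of -0.84 ± 0.27 (unadjusted limma p 0.0144, adjusted p 0.57). The control arrays varied widely, and control replicate 2 lay within 0.01 of source water replicate 3. The difference was -0.56 without control replicate 1 and -1.16 without control replicate 2. The E1 subunits of the same complex, Bckdha and Bckdhb, differed by -0.12 and -0.13 (95% intervals -0.36 to 0.13 and -0.38 to 0.13). The groups did not overlap for Bckdha and did for Bckdhb. Downstream, Ivd (isovaleryl-CoA dehydrogenase, in leucine breakdown) differed by -0.09. The methylcrotonyl-CoA carboxylase subunit genes Mccc1 and Mccc2 differed by -0.07 and -0.05. The valine pathway genes Hibch and Hibadh differed by -0.05 and -0.01. Of the propionyl-CoA carboxylase subunits, Pcca was the single branch member on the higher side at 0.18 (95% interval -0.11 to 0.48), and Pccb differed by -0.01.

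Tyrosine pathway genes differed little, with differences from -0.19 to 0.10, 4 of them turning in sign under at least 1 alternative setting, and 0 of 5 members with an unadjusted p under 0.05. Gstz1, the maleylacetoacetate isomerase and the member of smallest p in the branch, measured 12.24, 12.33 and 12.34 in control and 12.25, 12.28 and 12.04 in source water, with overlapping groups (difference -0.12, 95% interval -0.37 to 0.14). Hpd, the dioxygenase that forms homogentisate, differed by 0.03 (95% interval -0.20 to 0.25) and Fah, the last enzyme, by 0.00 (-0.24 to 0.25). Hgd, which opens the homogentisate ring, differed by 0.10. Tat, the aminotransferase that starts the pathway, measured 12.76, 12.95 and 12.49 in control and 12.81, 11.85 and 12.97 in source water. Source water replicates 1 and 3 lay within or just above its control range and replicate 2 well below it, and the difference of -0.19 was 0.16 without replicate 2.

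Among the glycine, lysine and sulfur amino acid genes, Gldc alone had an unadjusted p under 0.05. Gldc, the decarboxylating subunit of the glycine cleavage system, measured 10.19, 10.20 and 9.77 in control and 10.65, 10.39 and 10.87 in source water. All source water arrays lay above the control range, and the difference was 0.58 ± 0.17 (SE), a 1.5-fold higher signal (unadjusted limma p 0.00844, adjusted p 0.491). Aass, the bifunctional first enzyme of lysine breakdown, measured 11.83, 11.66 and 11.71 in control and 11.69, 11.18 and 11.59 in source water, with overlapping groups. The difference of -0.24 (unadjusted limma p 0.138) was -0.09 without source water replicate 2.

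Csad, which makes hypotaurine from cysteine sulfinate on the way to taurine, measured 9.72, 8.25 and 8.40 in control and 9.79, 9.31 and 9.66 in source water. Control replicate 1 lay among the source water arrays and far above the other control arrays. The difference of 0.80 ± 0.35 (unadjusted limma p 0.0538) was 1.26 without control replicate 1 and 0.53 without control replicate 2. Cdo1, the cysteine dioxygenase one step upstream, differed by -0.03 (95% interval -0.26 to 0.20). Cth, the cystathionine gamma-lyase that forms cysteine, measured 13.28, 13.23 and 13.23 in control and 13.13, 12.58 and 13.17 in source water, groups that did not overlap. The difference of -0.29 (unadjusted limma p 0.116) was -0.10 without source water replicate 2.

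**Figure D4:**
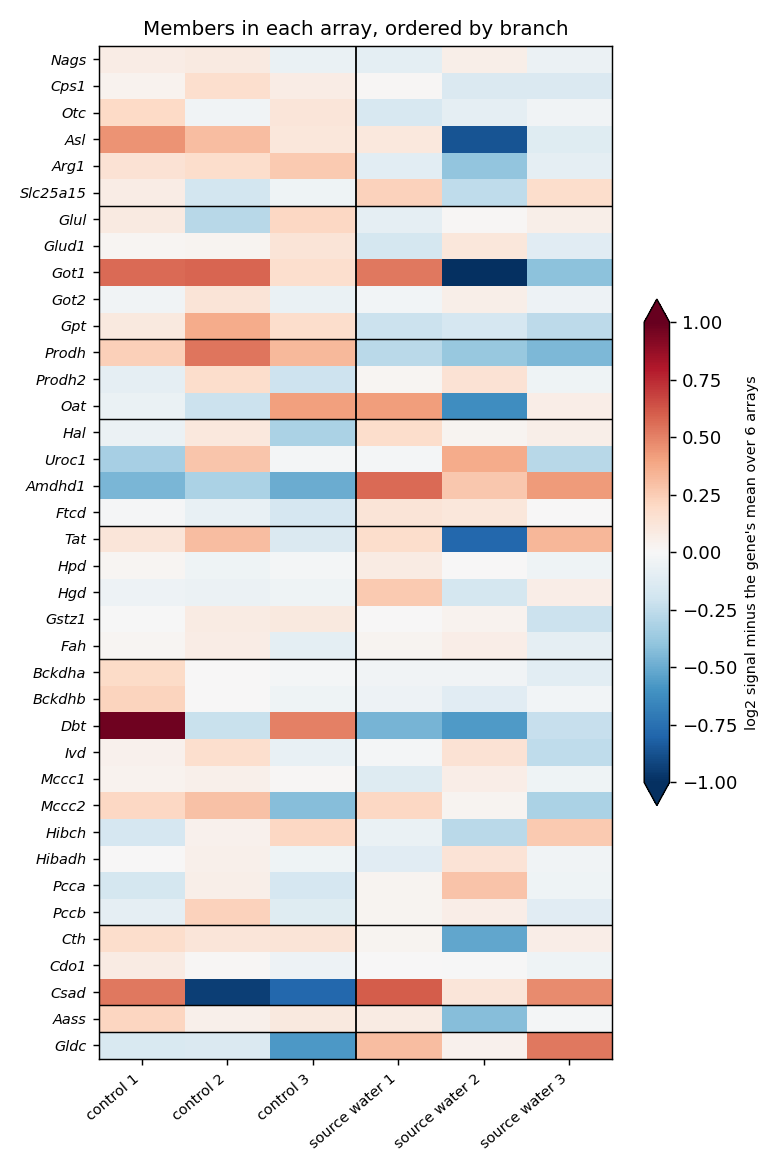
Log2 signal of each member in each array minus that gene's mean over the 6 arrays, with members ordered by branch and horizontal lines between branches, and with colours saturating at 1 in either direction. Source water replicate 2 stands out for Asl, Got1, Oat, Tat, Cth and Aass. Control replicate 1 differs from the other control arrays for Csad, and the control arrays of Dbt are spread widely.

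The arrays differed in how often they held a member's lowest or highest value. Control replicate 3 was the lowest of the 6 arrays for 10 members and control replicate 2 the highest for 11, and source water replicate 3 was below the gene's own mean for 26 members, more than any other array. Source water replicate 2 was the lowest for 13 of 38 members, and for 6 of them, Asl, Got1, Oat, Tat, Cth and Aass, it lay more than 0.3 below each of the other arrays. No other array was the lowest by that margin for more than 1 member. Pck1, the gluconeogenic phosphoenolpyruvate carboxykinase, showed the same shape, at 13.46, 13.24 and 13.29 in control and 13.38, 12.37 and 13.24 in source water. So did Slc7a2, a cationic amino acid transporter, at 7.01 in source water replicate 2 and 7.83 to 8.44 in the other arrays. The same array was also the lowest by more than 0.3 for genes of other functions. The hepatocyte marker Fgb measured 13.65 there and 14.20 to 14.40 elsewhere, while the other hepatocyte markers showed no such gap. The regulators Foxo1 and Cebpb measured 8.09 and 11.39 there, against 8.59 to 9.13 and 11.73 to 12.04 elsewhere. The 7 members with an unadjusted p under 0.05 kept their direction without this array, and all but Asl kept a p under 0.05. Pck1, Slc7a2, Fgb, Foxo1 and Cebpb were singled out after their values were seen, and they were not chosen by the rule for named genes.

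**Figure D5:**
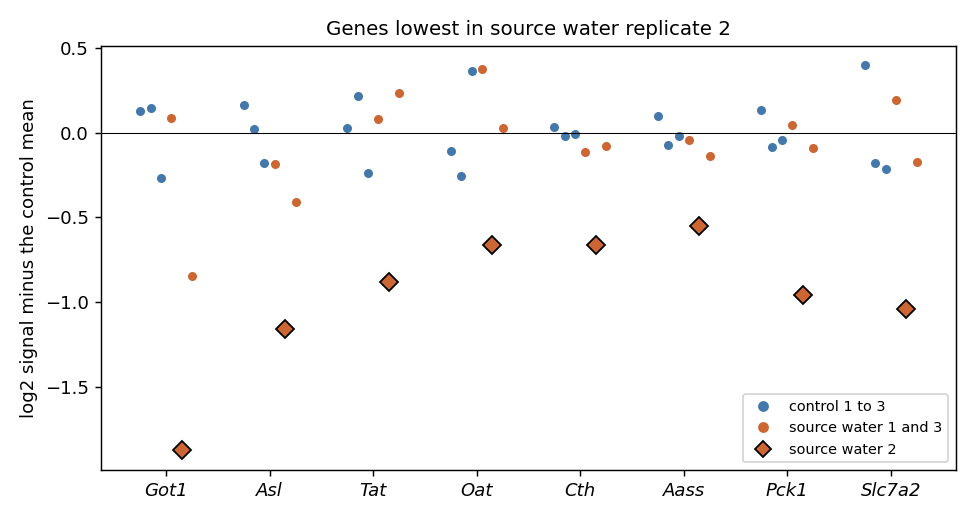
Log2 signal minus the control mean of each gene for 6 members and for Pck1 and Slc7a2, with 1 point per array and source water replicate 2 drawn as a diamond. For all 8 genes that array is the lowest, from -1.87 for Got1 to -0.55 for Aass, whereas source water replicates 1 and 3 mostly lie near the controls.

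Of 49 further measured genes of amino acid metabolism, 29 were lower and 20 higher, with a median difference of -0.02, and 0 passed the adjusted limma test. Without adjustment 5 had a p under 0.05 (10.2%), 1 higher and 4 lower. The share was 6.76% over all genes and 10.6% over genes at or above the level of the lowest member. Ddc, the aromatic amino acid decarboxylase, was the higher one, at 9.13, 8.58 and 8.79 in control and 9.93, 9.30 and 9.39 in source water, with no overlap (difference 0.70 ± 0.20). Besides Gpt2, the lower ones were Pipox, a peroxisomal pipecolate and sarcosine oxidase (-0.33 ± 0.12), Asns, the asparagine synthetase (-0.32 ± 0.10), and Odc1, the ornithine decarboxylase of polyamine synthesis (-0.32 ± 0.13). The groups did not overlap for any of these genes. A second probe set of Asns, near the background floor, differed by 0.02, and those of Odc1 by -0.13 and -0.27.

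Of 18 measured regulators of these pathways, 0 passed the adjusted limma test and 2 had an unadjusted p under 0.05, both lower (11.1%). The same rule took 6.76% of all genes (2.6% lower). It took 10.6% of the genes at or above the level of the lowest member (3.88% lower). Ppara, the fatty acid sensing nuclear receptor that is also known to affect amino acid enzymes, measured 10.42, 10.15 and 10.38 in control and 10.05, 10.03 and 9.94 in source water (difference -0.31 ± 0.11). Nr3c1, the glucocorticoid receptor, measured 9.11, 8.87 and 8.99 in control and 8.55, 8.67 and 8.86 in source water (-0.30 ± 0.12), and its other probe sets differed by -0.28 and -0.03. Klf15, a regulator of amino acid breakdown, differed by 0.16, and Cebpb by -0.02. Creb3l3, a liver transcription factor of the endoplasmic reticulum, differed by 0.23 with groups that did not overlap (unadjusted limma p 0.0658). Foxo1, a transcription factor restrained by insulin, had the widest difference of the 18, -0.41, with overlapping groups (unadjusted limma p 0.0658). Its lowest value was that of source water replicate 2. These last 4 genes were named after their values were seen.

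Zonation markers were compared because several members are zonal. Of 8 periportal genes 4 were lower, and of 10 pericentral genes 6. Leaving out the members, medians were -0.01 for 6 periportal and 0.00 for 8 pericentral genes. Of those 14 genes, the periportal Aldh1b1 (-0.38) and the pericentral Cyp7a1 (-1.41) had an unadjusted p under 0.05. In bulk liver, fewer cells of a type and less RNA per cell cannot be told apart. The 6 measured hepatocyte markers had a median deviation of -0.01 to 0.00 in control and -0.02 to 0.02 in source water. The 6 stellate markers were at -0.19 to -0.06 and 0.05 to 0.15, and the 7 Kupffer cell and macrophage markers at -0.39 to 0.26 and -0.18 to 0.33. Single markers of cells other than hepatocytes differed without overlap at an unadjusted limma p under 0.05. The stellate list's collagen genes Col3a1 and Col1a2 were higher by 1.33 and 0.50, the former exceeding any member's difference, and Lrat differed by -0.27. Second probe sets of Col3a1 and Col1a2, near the background floor, differed by 0.00 and 0.16. Of the 6 stellate markers 3 were higher and 3 lower. Endothelial Stab2 was higher by 0.39, while erythroid Klf1 differed by -0.61 and the dim acinar Cela2a (mean 4.98) by -0.36. Their lists went both ways, with 3 of 6 endothelial, 1 of 2 erythroid and 1 of 3 acinar markers higher. The part of these other cells in the members' differences was not tested. The 3' minus 5' signal of the control probe sets for Actb and Gapdh differed by -0.00 and -0.07. That of the added dap RNA differed by 0.54 and 0.60 in its probe set pairs, with no overlap between the groups. For the added lys and phe RNAs it differed by -0.04 to 0.05, for trp by -0.09, and for thr by 0.26 with overlapping groups. The part of labelling in the members' differences was not tested.

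In the authors' deposited table, 10 members had a p-value under 0.05 by their representative probe set, 4 higher and 6 lower, where 7.68% of all genes did. That share is not given by direction or for genes at or above the level of the lowest member, where the limma share was larger. Prodh had a p of 1.78e-05 and a signed fold change of -1.66 in the authors' deposited table, and Amdhd1 a p of 0.000325 and a fold change of 1.8. Beside the 7 genes above, Cps1, Ftcd and Csad were under that threshold in the authors' deposited table, with p-values of 0.0402, 0.00445 and 0.0408.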

How the data were processed

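Liver RNA pools were measured on 6 one-colour arrays, 3 per group. The deposited table holds log2 signals per probe set, and RMA and Partek are named per the submitters' processing notes, without settings. A comparison table by the authors, deposited beside it, gives per probe set the ratio, the p-value and a score that is a signed fold change, and names no test. The 64 control probe sets among 22690 took no part in the tests. Symbols came from the platform annotation, and all 38 measured members matched a gene table of GRCm38.p6 through Entrez identifiers.

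The groups were set against each other by lmFit and eBayes of limma (version 3.58.1, R 4.3.3) without covariates, with Benjamini-Hochberg adjustment over 22626 probe sets. The procedure was checked on simulated data, where it recovered 28.4% of 1.5-fold and 95.5% of 2-fold changes at an adjusted p under 0.05 (67 probe sets each). The noise was drawn independently for each probe set and array from the variances moderated by limma. It thus held no shifts that genes share within an array, and recovery in the real data may be lower. Arrays carry no read depth, so their number limits precision, and array medians lay at 5.79 to 5.86. Values in every array are given for members with an unadjusted p under 0.05 and for the member of smallest p in each other branch, with further genes where an array stood apart. They are also given for Cps1, Ftcd and Prodh2, which lie outside these criteria. Other genes of amino acid metabolism and regulators were named at an unadjusted p under 0.05 with groups that did not overlap. Slc7a2, Klf15, Cebpb, Creb3l3 and Foxo1 did not meet this rule and were named after their values were seen, as were Pck1 and Fgb. The members, lists and alternatives were chosen with earlier results of these data known.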

Additional observations from a re-analysis of the deposited data

How the results depend on the processing

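Settings varied were the replicate block, normalization (quantile, or median centring), filters for dim probe sets, the variance model (limma-trend, or no moderation), averaging over probe sets of 1 gene, and omission of each array. The 0 members past the adjusted limma test became 1, Amdhd1, with limma-trend (adjusted p 0.0344). With averaged probe sets the count was again 1, Amdhd1 (0.0432). Over all that was tested, limma-trend called 35 probe sets and averaging 18 genes, against 9 probe sets in the main fit. The count of members stayed at 0 in the rest, where the lowest adjusted p of Amdhd1 was 0.0600. Leaving out 1 array gave 0 members past that test, 2 to 3 higher and 4 to 6 lower at an unadjusted p under 0.05, and a median difference of -0.08 to -0.04. Amdhd1 differed by 0.77 to 0.92 and Prodh by -0.79 to -0.64 in those runs, each with an unadjusted p under 0.05 in 6 of 6. Asl also had an unadjusted p of 0.132 with the unmoderated statistic, and Dbt one of 0.0811. Under the replicate block 0 members passed the adjusted test (Amdhd1 0.105), and 45 probe sets in place of 9 did overall. At an unadjusted p under 0.05, the block gave 3 members higher and 6 lower, adding Csad and Got1, and limma-trend gave 3 and 6, adding Csad and Cps1. The shares of all genes under 0.05 in these alternative settings are not given here, so the members' counts cannot be set against them. After median centring 23 of 38 members were lower, and 27 after quantile normalization. The median difference over all probe sets was 0.007 and -0.005 under these settings. Same-numbered arrays deviated together at -0.07, 0.28 and 0.17, so the numbers were not taken to pair the arrays. Mccc2, at a mean of 6.26, was the member closest to background, and its small difference is the least informative.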
